A study of Homo sapiens with 12 samples.

Results

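The 32 genes described here belong to the cellular response to low oxygen and lie outside glycolysis. They were given by name, with earlier results of these data known, and all 32 were found by symbol among the 23705 genes of the count table. Among them are 4 regulators of the response (*HIF1A*, *EPAS1*, *ARNT* and *VHL*), and the other genes are described targets of hypoxia-inducible factors. The question was whether these genes followed the treatment of the cells or the culture experiment.

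RNA was sequenced from A375 cells, an established line from a human metastatic melanoma that the labels place at passages 30 to 32. Cells were exposed for 24 h to DMSO vehicle, to 5 μM of rosiglitazone (RGZ), to 2 μM of T0070907, or to 5 μM of RGZ with 2 μM of T0070907, here called the combination. Every group received DMSO, and all came from this 1 line. RGZ activates the nuclear receptor PPARγ and T0070907 blocks it. Each condition was measured in 3 independent experiments, with RNA of technical replicates pooled within an experiment, so that every experiment had 4 libraries and every condition 3. No label describes an oxygen level, and what set the experiments apart is not given in the sources used here.

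Hypoxia-inducible factors are pairs of an oxygen-sensitive subunit, HIF1α (*HIF1A*) or HIF2α (*EPAS1*), and the stable partner ARNT. While oxygen is available, prolyl hydroxylases of the EGLN family mark the α subunit, VHL binds the marked protein, and it is degraded. When oxygen falls the α subunit persists, pairs with ARNT and raises genes for blood vessel growth, acid export, matrix assembly and removal of mitochondria, and the control of the α subunits therefore lies largely in protein stability, which RNA counts do not measure. HIF pairs bind DNA at short sites whose core letters are ACGTG or GCGTG.

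These letters were searched on both strands in RefSeq promoters (GRCh38.p14), each reaching from 250 bases before to 50 bases after a gene start. Promoters of 25 of the 32 genes were listed, and 22 of these 25 genes (88%) held the letters in at least 1 promoter, against 52.4% of 27305 genes in the whole table. ACGTG alone was found for 16 of the 25 genes (64%) and for 24.9% of all genes. By single promoters, which differ in number between genes, 31 of 36 (86.1%) of the hypoxia response genes and 48.4% of 35116 in all held either core. The 32 genes were listed as regulators or described targets of these factors, and the whole table was not limited to genes tested here. The shares therefore describe the list, and no conclusion is drawn from their difference. The listed promoters of *ARNT*, *EGLN3* and *P4HA2* held neither, which says only that these letters are not in these windows. Windows are shown for members with an upstream match whose levels differed most between experiments, and for *AK4*, which differed most clearly between treatments. They were EPAS1 at chr2:46297280-46297399 (plus strand, from -127 to -8 relative to the start), ADM at chr11:10304962-10305072 (plus strand, -111 to -1), CA9 at chr9:35673900-35673927 (plus strand, -28 to -1), PLOD2 at chr3:146161288-146161407 (minus strand, -223 to -104), BHLHE40 at chr3:4979187-4979306 (plus strand, -250 to -131), CITED2 at chr6:139374692-139374811 (minus strand, -163 to -44, 1 of 3 listed promoters) and AK4 at chr1:65147397-65147516 (plus strand, -155 to -36, 1 of 4 listed promoters). Each is written 5′ to 3′ on the strand of the gene. Capitals mark the core letters or their reverse complements, and CACGTG holds a core on each strand.
EPAS1: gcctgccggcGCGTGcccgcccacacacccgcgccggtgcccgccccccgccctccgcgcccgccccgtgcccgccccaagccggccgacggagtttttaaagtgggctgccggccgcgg
ADM: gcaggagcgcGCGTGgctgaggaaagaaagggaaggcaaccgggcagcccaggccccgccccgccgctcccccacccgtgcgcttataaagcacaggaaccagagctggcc
CA9: gtttccaatgCACGTacagcccgtacac
PLOD2: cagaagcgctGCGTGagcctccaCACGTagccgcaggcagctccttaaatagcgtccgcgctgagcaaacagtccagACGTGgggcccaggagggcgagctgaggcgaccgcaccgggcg
BHLHE40: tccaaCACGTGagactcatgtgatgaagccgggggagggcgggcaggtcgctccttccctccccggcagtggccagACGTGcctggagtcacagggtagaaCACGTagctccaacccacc
CITED2: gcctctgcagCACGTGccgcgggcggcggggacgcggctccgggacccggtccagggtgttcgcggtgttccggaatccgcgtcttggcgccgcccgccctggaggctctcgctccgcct
AK4: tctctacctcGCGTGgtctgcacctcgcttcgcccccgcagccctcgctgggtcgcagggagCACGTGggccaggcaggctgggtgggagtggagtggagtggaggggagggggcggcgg
The windows of EPAS1, ADM and CA9 held 1 match each. PLOD2 and AK4 had 3, CITED2 had 2 and BHLHE40 had 4. A match is a description of the sequence and not of binding in these cells.

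The libraries held between 8319455 and 11375227 counts (median 9164360). Levels below are CPM, counts of a gene relative to the total of its library after TMM scaling in edgeR, on which the detection floor of 3 counts stood between 0.258 and 0.371 CPM. Of all genes, 13522 had counts high enough for testing, and 31 of the 32 hypoxia response genes were among them. Libraries of 1 experiment deviated together from the condition means, strongly in experiments 2 and 3, where the correlation over genes of a library with the others of its experiment averaged 0.673 to 0.742, and weakly in experiment 1, at 0.145 to 0.323. Treatments were compared in edgeR's quasi-likelihood test without a term for the experiment and again with it, named the replicate block below. A gene was called at an adjusted p below 0.05 over all tested genes. As a check of the treatment, all 6 PPAR target genes tested, *FABP4*, *ANGPTL4*, *CPT1A*, *PLIN2*, *CD36* and *PDK4*, rose with RGZ without the block (1.24% of all genes were called, 0.947% upward). In the melanocyte lineage, *SOX10* had a mean of 309 CPM, while *TYR* and *DCT*, which serve pigment synthesis, were at or under the floor in every library. Single libraries moved the comparisons of the combination with the block, and the share of all genes called against vehicle went from 0% to 19% without the combination library of experiment 2 and to 6.38% without the vehicle library of experiment 2. For genes called in comparisons of the combination, the fits without 1 library that kept or lost the call are counted below. Values without the combination library of experiment 2 are given for *EPAS1* and *HIF1A*.

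Transcript levels per length put the genes far apart in vehicle. *PLOD1*, a lysyl hydroxylase that prepares collagen for crosslinking, had 82.1 ± 7.07 CPM per kb (SD, n = 3). The lysyl oxidase-like enzyme gene *LOXL2* followed with 46.7 ± 10.4 CPM per kb and *HIF1A* with 44.3 ± 8.20, and the levels of these neighbours differed by less than their SD. *EPAS1* stood at 0.719 ± 0.403 CPM per kb, so that of both oxygen-sensitive subunits the cells held mainly *HIF1A* transcript. Below *EPAS1* were *LOX* with 0.489 ± 0.0792 CPM per kb and *BHLHE41* with 0.458 ± 0.0896, which also lay within their SD of each other. *CA12*, a carbonic anhydrase of the cell surface, had between 2 and 12 counts per library and was not tested. In the order vehicle, RGZ, T0070907 and combination, its counts were 3, 4, 7 and 4 in experiment 1, 10, 12, 9 and 4 in experiment 2, and 3, 2, 3 and 2 in experiment 3.

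More of these genes differed between the culture experiments than between the treatments, and the same held over all tested genes. Between the 4 conditions, 8 of the 31 genes differed with the replicate block (20.6% of all tested genes) and 1 without it (2.35%). With the condition in the model, 15 of the 31 genes differed between the 3 experiments, while 30.5% of all tested genes did. They were *EPAS1*, *ADM*, *CA9*, *BNIP3L*, *EGLN1*, *NDRG1*, *P4HA1*, *PLOD2*, *LOXL2*, *MXI1*, *STC1*, *BHLHE40*, *AK4*, *ZNF395* and *CITED2*. Experiment 2 was higher than experiment 1 for 10 genes and lower for 0, where 20.2% of all genes were called, 11.4% higher and 8.86% lower. Experiment 3 was lower than experiment 2 for 11 genes and higher for 2, *AK4* and *MXI1*, against 14.4% lower and 11.5% higher among all genes. Experiments 1 and 3 differed for 6 genes (12% of all genes were called), with *STC1*, *NDRG1* and *P4HA1* higher in experiment 3 (6.14%) and *ADM*, *LOXL2* and *CITED2* lower (5.81%). This count moved with the libraries and terms in the model, with 10 genes (20.5% of all) without the combination library of experiment 1, 3 without the RGZ library of experiment 1 (7.34%) or of experiment 3 (7.69%), and 1, *ADM*, with no condition term (3.13%). The median log2 difference of the 31 genes was 0.12 for experiment 2 against 1 (all tested genes -0.0053) and -0.092 for 3 against 2 (all tested genes 0.0024).

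The split of each gene's variation gave the same order. Of the sum of squares of its log2 CPM over the 12 libraries, the median hypoxia response gene had 47.2% between experiments, 23.1% between conditions and 22.4% in the remainder. Over all tested genes the medians were 27.7%, 34.4% and 28.1%. The experiment held the larger part than the condition in 21 of the 31 genes (67.7%), against 43.8% of all tested genes. *LOXL2* and *ADM* stood at one end, with 92.3% and 90.7% between experiments. *AK4* stood near the other, with 85.3% between conditions and 11.2% between experiments.

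**Figure D1:**
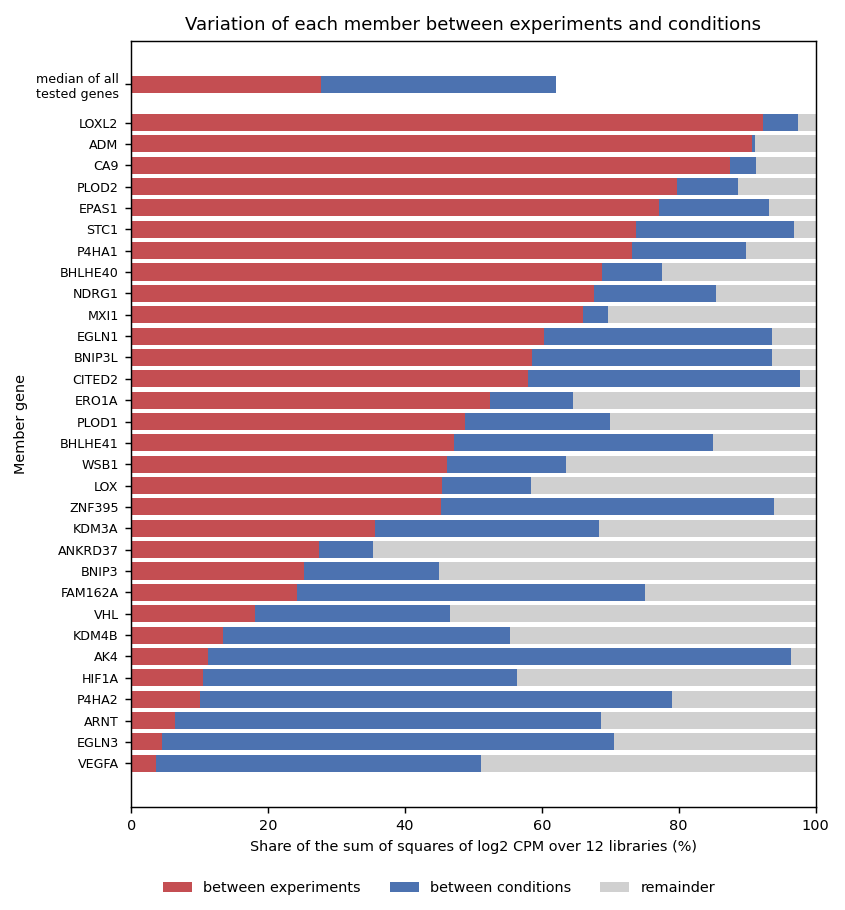
Share (%) of the sum of squares of log2 CPM over the 12 libraries that lay between the 3 experiments (red), between the 4 conditions (blue) and in neither (grey), for each of the 31 tested hypoxia response genes. The top bar gives the medians of all tested genes, 27.7% and 34.4%. Red is the larger part in 21 genes, led by *LOXL2* with 92.3%, and blue in the other 10, led by *AK4* with 85.3%.

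Among the regulators, *EPAS1* followed the experiment and the others were not called for it. In the order vehicle, RGZ, T0070907 and combination, *EPAS1* had 2.95, 3.74, 1.85 and 1.85 CPM in experiment 1, 6.07, 10.6, 5.10 and 4.10 in experiment 2, and 2.12, 1.83, 1.81 and 1.61 in experiment 3. All 4 libraries of experiment 2 were above all 8 of the other experiments, a pattern seen in 4.94% of all tested genes, and experiment 3 was the lowest within each condition (8.31%). *EPAS1* was 2.46-fold higher in experiment 2 than in experiment 1 (log2 difference 1.30 ± 0.18 SE, adjusted p = 6.6e-05) and 3.44-fold lower in experiment 3 than in 2 (log2 difference -1.78 ± 0.19, adjusted p = 1.1e-06). These SE values are approximate, derived from the F statistic, and every comparison of experiments has 4 libraries a side.

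*HIF1A*, in the same order, had 211, 193, 189 and 118 CPM in experiment 1, 148, 159, 167 and 160.2 in experiment 2, and 167, 174, 151 and 131 in experiment 3. Its levels overlapped between all experiments (adjusted p = 0.28). *ARNT*, the partner of both α subunits, lay between 30.9 and 43.1 CPM. Its libraries had 41.6, 35.0, 43.1 and 30.9 CPM in experiment 1, 39.4, 37.2, 42.0 and 39.2 in experiment 2, and 38.9, 36.7, 41.4 and 36.8 in experiment 3. *VHL*, which recognises the hydroxylated α subunit, had 90.2, 94.7, 92.6 and 105 CPM in experiment 1, 99.4, 103, 90.1 and 100.4 in experiment 2, and 92.1, 101, 89.4 and 85.0 in experiment 3. Neither gene was called for the experiment (adjusted p = 0.72 for *ARNT* and 0.48 for *VHL*).

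Among genes of secreted and surface proteins, *CA9*, a carbonic anhydrase that acidifies the surroundings of hypoxic cells, had 0.908, 0.520, 0.809 and 0.494 CPM in experiment 1, 5.24, 6.39, 2.77 and 2.42 in experiment 2, and 0.824, 0.711, 0.603 and 0.964 in experiment 3. Experiment 2 stood above all others in every library, with 23 to 56 counts against 4 to 9 elsewhere. The difference was 6.05-fold between experiments 2 and 1 (log2 2.60 ± 0.29, adjusted p = 5.4e-06), and experiment 3 was 5.25-fold lower than experiment 2 (log2 -2.39 ± 0.28, adjusted p = 2.4e-06). Exons of *CA9* share positions with *ARHGEF39* on the opposite strand.

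*STC1*, which encodes the secreted hormone stanniocalcin, had 3.63, 4.99, 3.12 and 2.35 CPM in experiment 1, 12.7, 20.3, 9.85 and 10.5 in experiment 2, and 4.24, 10.2, 3.36 and 4.29 in experiment 3. It was highest in experiment 2 and lowest in experiment 1 within every condition, although the RGZ library of experiment 3 exceeded the T0070907 library of experiment 2. Experiment 2 was 3.79-fold higher than experiment 1 (log2 1.92 ± 0.15, adjusted p = 3.9e-08) and experiment 3 was 2.45-fold lower than 2 (log2 -1.30 ± 0.13, adjusted p = 4.2e-07). The smaller difference of experiments 3 and 1 (log2 0.63 ± 0.17, adjusted p = 0.022) was lost in 3 of 12 fits that left out 1 library, with an adjusted p of up to 0.20 without the RGZ library of experiment 3.

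*ADM*, which encodes the vasodilating peptide adrenomedullin, separated experiment 3 from the others. It had 26.3, 28.9, 29.6 and 32.0 CPM in experiment 1, 29.6, 26.6, 24.9 and 24.4 in experiment 2, and 18.1, 17.0, 19.0 and 18.8 in experiment 3. All 4 libraries of experiment 3 lay below all other libraries, as in 2.74% of all tested genes. Experiment 3 was 1.60-fold lower than experiment 1 (log2 -0.68 ± 0.088, adjusted p = 4.1e-05) and 1.44-fold lower than 2 (log2 -0.53 ± 0.089, adjusted p = 0.00017), and experiments 2 and 1 did not pass the test (log2 -0.15 ± 0.084, adjusted p = 0.23). *VEGFA*, the main angiogenic growth factor of the response, lay between 45.8 and 65.1 CPM over all libraries and was not called for the experiment (adjusted p = 0.81).

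Genes of collagen processing were divided. *PLOD2*, the lysyl hydroxylase of collagen telopeptides, had 88.1, 77.5, 84.3 and 64.9 CPM in experiment 1, 109, 112, 103 and 109 in experiment 2, and 81.5, 66.5, 78.7 and 71.2 in experiment 3. Its libraries of experiment 2 lay above all others. The log2 difference was 0.46 ± 0.071 for experiment 2 against 1 (adjusted p = 0.00014) and -0.54 ± 0.071 for 3 against 2 (adjusted p = 1.0e-05).

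*LOXL2*, which crosslinks collagen, had 154, 146, 155 and 139 CPM in experiment 1, 207, 176, 209.9 and 202 in experiment 2, and 136, 122, 127 and 121 in experiment 3. The 3 experiments did not overlap, in the order 2, 1 and 3. Experiment 2 was higher than experiment 1 by 0.42 ± 0.051 on the log2 scale (adjusted p = 1.1e-05), and experiment 3 was lower than 2 by a log2 difference of -0.65 ± 0.051 (adjusted p = 1.5e-08). Its exons share positions with *ENTPD4* on the same strand. Of the prolyl 4-hydroxylase subunits, *P4HA1* was higher in experiment 3 than in 1 by 0.21 ± 0.058 on the log2 scale (adjusted p = 0.027), its 4 libraries of experiment 3 lying above all others (2.47% of all tested genes), whereas *P4HA2*, *PLOD1* and *LOX* were not called.

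Among transcriptional regulators downstream of the factors, *CITED2*, which competes with HIF1α for the coactivators CBP and p300, had 36.4, 57.4, 34.2 and 39.9 CPM in experiment 1, 61.3, 99.0, 47.6 and 52.2 in experiment 2, and 25.9, 47.4, 20.4 and 27.6 in experiment 3. Experiment 2 was highest and experiment 3 lowest within each condition, while libraries of different conditions overlapped. The log2 difference was 0.61 ± 0.076 for experiment 2 against 1 (adjusted p = 1.5e-05), -0.49 ± 0.082 for 3 against 1 (adjusted p = 0.00050) and -1.10 ± 0.078 for 3 against 2 (adjusted p = 4.1e-09).

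*BHLHE40*, a basic helix-loop-helix repressor also known for its link to the circadian clock, had 15.6, 11.96, 18.1 and 11.98 CPM in experiment 1, 25.0, 31.7, 23.8 and 18.8 in experiment 2, and 15.4, 16.0, 18.1 and 17.6 in experiment 3. All libraries of experiment 2 were above the others, by 1.72-fold over experiment 1 (log2 0.78 ± 0.13, adjusted p = 0.00045) and 1.47-fold over experiment 3 (log2 of 3 against 2, -0.55 ± 0.13, adjusted p = 0.0034). *MXI1*, a MYC antagonist, went the other way and was higher in experiment 3 than in 2 by 0.33 ± 0.093 on the log2 scale (adjusted p = 0.013). *BHLHE41*, the close relative of *BHLHE40*, and the histone demethylases *KDM3A* and *KDM4B* were not called.

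The other genes called for the experiment follow. *BNIP3L*, a receptor for removal of mitochondria, had 57.9, 62.6, 45.9 and 51.0 CPM in experiment 1, 66.2, 71.0, 57.6 and 67.3 in experiment 2, and 52.4, 55.01, 48.0 and 50.6 in experiment 3. It was highest in experiment 2 within each condition, with a log2 difference of 0.27 ± 0.060 from experiment 1 (adjusted p = 0.0035) and experiment 3 at -0.34 ± 0.060 from 2 (adjusted p = 0.00023). *NDRG1*, a stress-responsive gene, was higher in experiment 2 than in 1 by 0.30 ± 0.061 (adjusted p = 0.0018) and in 3 than in 1 by 0.24 ± 0.061 (adjusted p = 0.014), both on the log2 scale. *EGLN1*, the principal HIF prolyl hydroxylase, differed only between 3 and 2 (log2 -0.18 ± 0.052, adjusted p = 0.016) among the pairs tested. *ZNF395*, a zinc finger protein, was higher in experiment 2 than in 1 by 0.40 ± 0.066 (adjusted p = 0.00031). Exons of *ZNF395* share positions with *FBXO16* on the same strand.

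**Figure D2:**
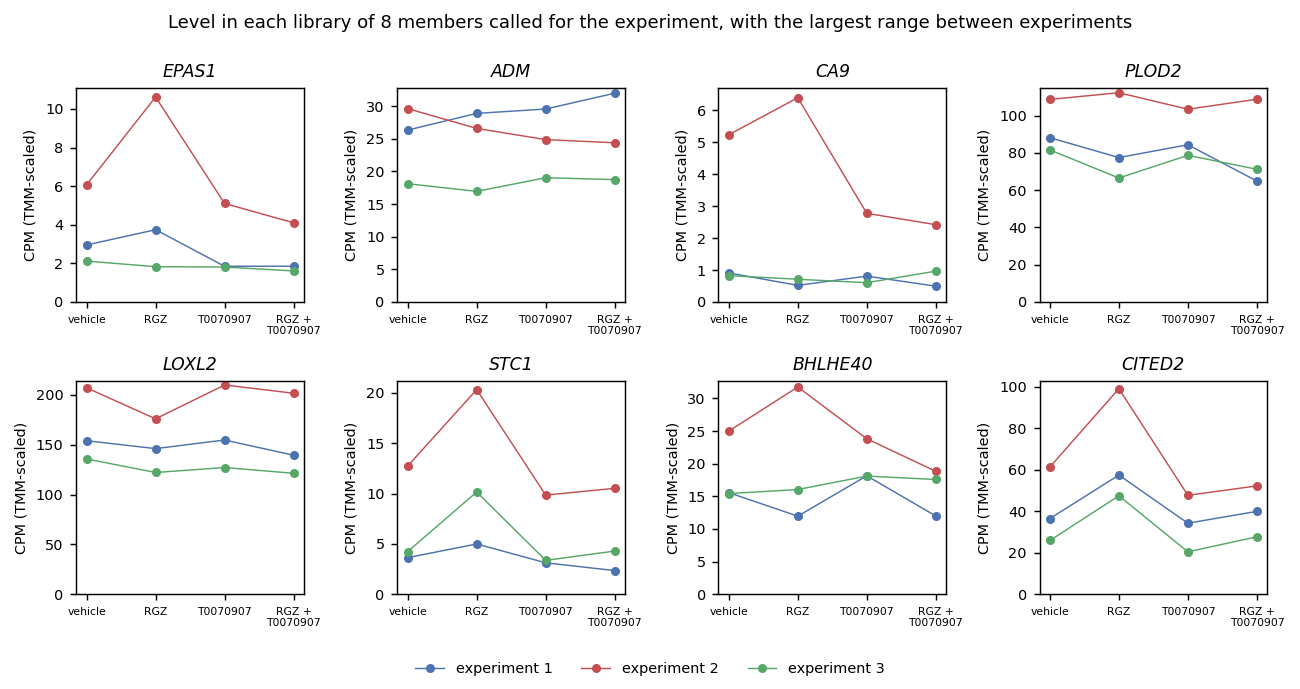
CPM (TMM-scaled, linear axes from 0) in each of the 12 libraries for 8 genes called for the experiment, those with the largest range of experiment means on the log2 scale. Points are single libraries, and lines join the libraries of 1 experiment across the 4 conditions. Experiment 2 lies highest throughout in *EPAS1*, *CA9*, *PLOD2*, *LOXL2*, *STC1*, *BHLHE40* and *CITED2*, and experiment 3 lies lowest in *ADM*, between 17.0 and 19.0 CPM.

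Over all 31 genes, 11 were highest in experiment 2 within every condition, against 11.6% of all tested genes. These were *EPAS1*, *CA9*, *BNIP3L*, *EGLN1*, *PLOD2*, *LOXL2*, *STC1*, *BHLHE40*, *WSB1*, *ZNF395* and *CITED2*, and *AK4* alone of the 31 was lowest there in every condition (9.73% of all tested genes). None of the 31 was highest in experiment 1 in every condition (4.66%), and *NDRG1*, *STC1* and *BHLHE41* were lowest in it (3.61%). The summed level of the 32 genes was 1547 to 1672 CPM in experiment 1, 1778 to 1867 in experiment 2 and 1557 to 1660 in experiment 3, so that the sum in experiment 2 did not overlap with the others. In bulk RNA, fewer cells that express a gene and less of its RNA per cell cannot be told apart.

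Other genes of the pathway were set beside the 30.5% of all tested genes called between experiments and the 20.2% called in experiment 2 against 1. Of 12 genes of HIF machinery outside the 32, 10 were tested and 1, *ARNT2*, differed between experiments (10%). Of 22 other described hypoxia-induced genes outside glycolysis, 12 differed (54.5%), and in experiment 2 against 1 there were 4 higher and 2 lower (27.3% called). Among them, the miR-210 host transcript *MIR210HG* was 2.17-fold higher in experiment 2 (log2 1.12 ± 0.29, adjusted p = 0.0096), whereas *FLT1*, a VEGF receptor, was 2.54-fold lower (log2 -1.34 ± 0.12, adjusted p = 2.0e-07). Of 20 glycolytic hypoxia-induced genes 6 differed (30%), and experiment 2 against 1 (25% called) had 4 higher, including the lactate exporter *SLC16A3* (log2 0.70 ± 0.079, adjusted p = 5.0e-06) and the aldolase *ALDOC* (log2 0.61 ± 0.076, adjusted p = 1.4e-05), and 1 lower, *PFKFB3* (log2 -0.36 ± 0.060, adjusted p = 0.00030). The median log2 difference of experiment 2 against 1 was 0.092 for the other hypoxia-induced genes outside glycolysis, 0.016 for the glycolytic genes and -0.028 for the HIF machinery, beside 0.12 for the 31 genes.

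Further genes moved with the experiments. Of 8 proliferation genes, 4 differed between experiments (50%, against 30.5% of all tested genes). *MKI67*, *PCNA* and *MCM2* were lower in experiment 2 than in 1, and *MKI67*, *MCM2* and *CCNA2* were lower in experiment 3 than in 1, with median log2 differences of -0.12 and -0.14 over the 8 genes. Of 8 ATF4 targets 3 differed (37.5%), all lower in experiment 3 than in 1 and than in 2, and 1 of them was also lower in experiment 2 than in 1. The summed level of 4 fibroblast markers averaged 14.6, 29.1 and 12.4 CPM in experiments 1, 2 and 3, over a range of 9.64 to 34.4 CPM, with none of the 4 at or under the floor throughout and *COL1A1* the highest. The sum of 3 endothelial markers averaged 1.07, 2.41 and 0.949 CPM (range 0.706 to 2.499). The 8 melanocyte markers averaged 400, 291 and 522 CPM (range 239 to 574, with *TYR* and *DCT* at or under the floor), the 3 keratinocyte markers 21.4, 13.7 and 29.5 CPM (range 6.51 to 37.3, *KRT1* at or under the floor), and the 3 leukocyte markers 1.09, 0.674 and 0.979 CPM (range 0.457 to 1.39, *PTPRC* and *CD3E* at or under the floor). Their part in the differences of the hypoxia response genes was not tested.

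Fewer genes differed between the conditions. Without the block, 1 of the 31 genes, *AK4*, differed between the 4 conditions (adjusted p = 0.0092), beside 2.35% of all tested genes, and with the block 8 did, beside 20.6%. These 8 were *CITED2*, *EPAS1*, *AK4*, *FAM162A*, *ZNF395*, *BNIP3L*, *STC1* and *P4HA2*. Without the block edgeR called 0 of the 31 genes in each of the 5 pairwise comparisons of conditions and in the interaction, where RGZ against vehicle and the combination against RGZ each called 1.24% of all genes (for the latter 0.924% lower), T0070907 against vehicle 0.0074%, the combination against T0070907 0.037%, and the combination against vehicle and the interaction 0%. At an unadjusted p below 0.05 without the block, the count was 2 genes for RGZ (10.5% of all tested genes), 2 for T0070907 (3.1%), 1 for the combination against vehicle (10.6%), 4 for the combination against RGZ (13.1%), 3 for the combination against T0070907 (15%) and 1 for the interaction (3%). DESeq2 and limma-voom also compared the treatments without a term for the experiment. DESeq2 called *AK4* in the combination against T0070907 (0.614% of all tested genes) and none of the 31 genes for RGZ (2.23%), T0070907 (0.155%), the combination against vehicle (0%), the combination against RGZ (2.35%) or the interaction (0.0074%). In the same order of tests limma-voom called none of the 31 genes, beside 0.037%, 1.13%, 0%, 0%, 1.23% and 0% of all tested genes.

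With the block, RGZ changed 5 of the 31 genes against vehicle, 3 upward and 2 downward, where 9.3% of all tested genes were called, 4.95% upward and 4.35% downward. *CITED2*, *STC1* and *AK4* rose, and *EGLN3* and *ZNF395* fell. The median log2 fold change of the 31 genes was -0.027 and that of all tested genes -0.0096. The *CITED2* libraries listed above were higher with RGZ than with vehicle in each experiment, 57.4 against 36.4, 99.0 against 61.3 and 47.4 against 25.9 CPM. Across experiments the conditions overlapped, and the change was 1.66-fold (log2 0.73 ± 0.088 with the block, adjusted p = 1.9e-05, and adjusted p = 0.55 without it). *STC1* rose by 0.80 ± 0.15 on the log2 scale, or 1.74-fold (adjusted p = 0.0022 with the block and 0.74 without), from 3.63 to 4.99, 12.7 to 20.3 and 4.24 to 10.2 CPM.

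*AK4*, a mitochondrial adenylate kinase, was the gene that followed treatment most closely. It had 54.2, 65.6, 35.8 and 49.5 CPM in experiment 1, 46.3, 56.2, 31.6 and 48.4 in experiment 2, and 50.2, 76.1, 38.5 and 59.0 in experiment 3. The 3 RGZ libraries lay above the 3 vehicle libraries, and the 3 T0070907 libraries lay below all 9 others. With the block RGZ raised *AK4* by 0.39 ± 0.076 on the log2 scale, or 1.31-fold (adjusted p = 0.0024, and 0.21 without the block). Reads from 6 named pseudogenes of *AK4* could be split from or added to its count, depending on the counting.

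Both decreases with RGZ rested on less. *EGLN3*, an oxygen-sensing prolyl hydroxylase, had 2.84, 1.04, 1.16 and 1.73 CPM in experiment 1, 2.02, 1.03, 1.16 and 1.68 in experiment 2, and 2.00, 0.812, 1.90 and 0.857 in experiment 3, from 8 to 25 counts per library. The RGZ libraries lay below the vehicle libraries, with a log2 fold change of -1.25 ± 0.34 (adjusted p = 0.023 with the block and 0.14 without). Leaving out any 1 of the 6 libraries kept this call in 1 fit, with a log2 fold change between -1.33 and -1.08 and an adjusted p of up to 0.15, without the vehicle library of experiment 1. *ZNF395* had 44.3, 39.1, 50.5 and 37.7 CPM in experiment 1, 56.4, 44.6, 68.2 and 57.8 in experiment 2, and 46.6, 38.2, 53.9 and 42.4 in experiment 3. Its log2 fold change of -0.27 ± 0.078 with RGZ (adjusted p = 0.038 with the block and 0.61 without) also kept its call in 1 of 6 such fits, and the adjusted p reached 0.27 without the RGZ library of experiment 2. The calls of *CITED2*, *STC1* and *AK4* were kept in 6 of 6. When all 4 libraries of experiment 3 were left out, RGZ against vehicle called 1 of these genes, *CITED2*, while the share of all tested genes called went from 9.3% to 2.96%.

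T0070907 alone changed 1 of the 31 genes, *AK4*, which fell to 35.8, 31.6 and 38.5 CPM from 54.2, 46.3 and 50.2 in vehicle. It was 1.43-fold lower (log2 -0.51 ± 0.080, adjusted p = 0.0026 with the block and 0.81 without), where 0.91% of all tested genes were called and 0.673% fell. RGZ and T0070907 thus had opposite signs for *AK4*, in comparisons that share the vehicle libraries. With the block, its call with T0070907 was kept in 6 of 6 fits that left out 1 of the libraries compared. The adjusted p reached 0.046 without the T0070907 library of experiment 3. The call was lost when all libraries of experiment 3 were left out, where 0.074% of all tested genes were called. As a description, 14 of the 31 genes (45.2%) were lower with T0070907 than with vehicle in each of the 3 experiments, against 16% of all tested genes, and 2, *ARNT* and *ZNF395*, were higher in each (16.7%). The 14 were *EPAS1*, *CA9*, *BNIP3*, *BNIP3L*, *EGLN1*, *EGLN3*, *P4HA1*, *P4HA2*, *PLOD2*, *ANKRD37*, *STC1*, *AK4*, *WSB1* and *CITED2*, of which *AK4* alone passed the test. The median log2 difference of the 31 genes from vehicle was -0.052, beside 0.0022 over all tested genes.

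**Figure D3:**
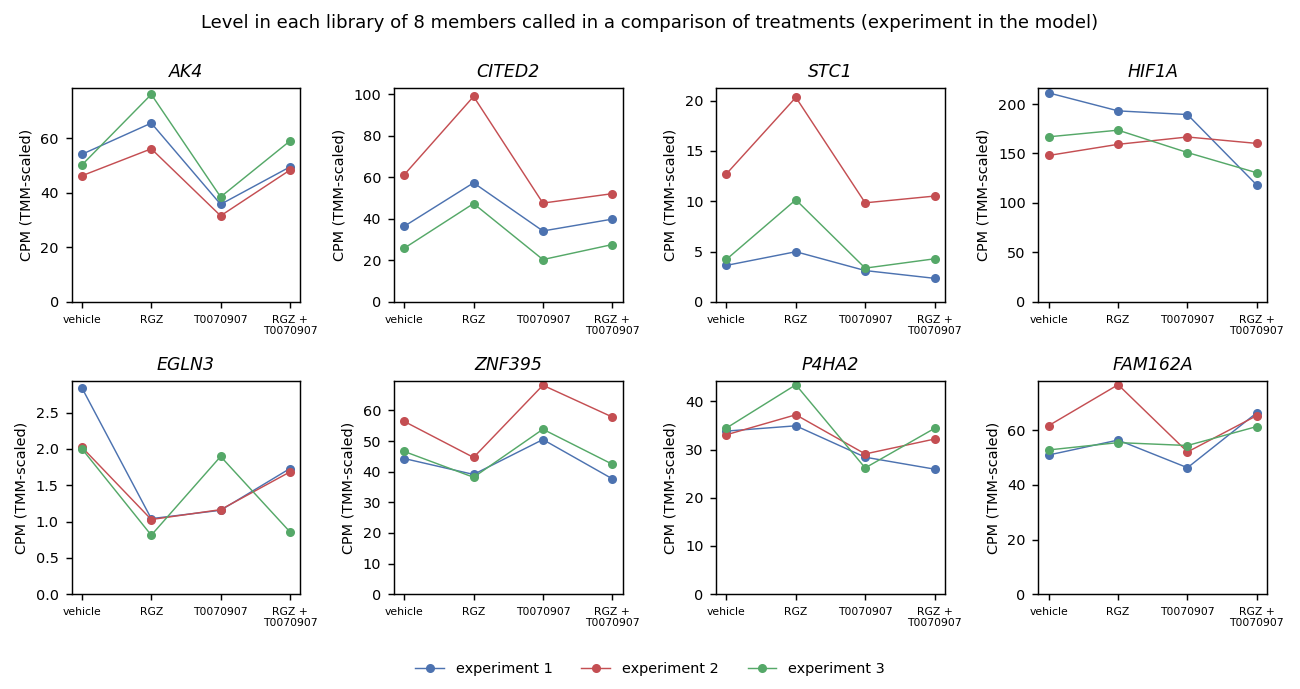
CPM (TMM-scaled, linear axes from 0) in each of the 12 libraries for 8 genes called in a comparison of treatments with the experiment in the model. Points are single libraries, and lines join the libraries of 1 experiment across the 4 conditions. *AK4* peaks with RGZ and is lowest with T0070907 in every experiment, *CITED2* and *STC1* peak with RGZ in every experiment, and *HIF1A* with the combination is low in experiments 1 and 3 (118 and 131 CPM) but not in experiment 2 (160.2 CPM).

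The combination was compared with RGZ, which gives the effect of T0070907 in the presence of RGZ. With the block, 6 of the 31 genes were lower with the combination than with RGZ and 0 were higher, where 5.88% of all tested genes were lower and 5.55% higher. *CITED2* had a log2 difference of -0.75 ± 0.088 (adjusted p = 1.5e-05), *STC1* of -1.06 ± 0.16 (adjusted p = 0.00018) and *AK4* of -0.33 ± 0.075 (adjusted p = 0.0075). Without the block their adjusted p was 0.42, 0.55 and 0.27. These 3 genes had risen with RGZ, in a comparison that shares the RGZ libraries. Of them, *AK4* was also called lower with T0070907 alone than with vehicle. It was called higher with the combination than with T0070907 alone, so its rise with RGZ was also seen with T0070907 present. Their calls were kept in 6 of 6 fits without 1 of the libraries compared for *CITED2* and *STC1* and in 5 of 6 for *AK4*, whose adjusted p was 0.086 without the RGZ library of experiment 3.

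*EPAS1*, whose libraries are given above, was lower with the combination than with RGZ in each experiment, 1.85 against 3.74, 4.10 against 10.6 and 1.61 against 1.83 CPM. The log2 difference was -1.05 ± 0.23 (adjusted p = 0.0047 with the block and 0.52 without), and the call was kept in 4 of 6 fits, with an adjusted p of 0.14 without the RGZ library of experiment 2 and 0.054 without the combination library of experiment 2. *HIF1A* had a log2 difference of -0.35 ± 0.11 (adjusted p = 0.049 with the block and 0.31 without). The combination library of experiment 2 held the level of its RGZ library, 160.2 against 159 CPM, and without it the difference was -0.55 ± 0.088 (adjusted p = 0.00019), while the call was lost in the other 5 fits. Without the combination library of experiment 1 the difference was -0.17 (adjusted p = 0.17), and the adjusted p reached 0.21 without the RGZ library of experiment 3. Exons of *HIF1A* share positions with genes on either strand, among them its antisense transcript *HIF1A-AS1*. *P4HA2*, a prolyl 4-hydroxylase subunit for collagen, had 33.8, 34.9, 28.4 and 25.9 CPM in experiment 1, 33.1, 37.2, 29.1 and 32.2 in experiment 2, and 34.5, 43.4, 26.2 and 34.4 in experiment 3. Its log2 difference of -0.32 ± 0.094 (adjusted p = 0.035 with the block and 0.25 without) was called in 2 of 6 fits, and the adjusted p was 0.23 without the RGZ library of experiment 3.

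Against T0070907 alone, the combination raised *AK4* and *FAM162A* and lowered *ZNF395*, where 8.76% of all tested genes were called with the block, 4.55% upward and 4.22% downward. *AK4* was 1.48-fold higher (log2 0.57 ± 0.079, adjusted p = 0.00043 with the block and 0.22 without), and its call was kept in 6 of 6 fits. The call was lost when all libraries of experiment 3 were left out, where 0.133% of all tested genes were called. *FAM162A*, a mitochondrial protein linked to cell death in hypoxia, had 51.0, 56.5, 46.3 and 66.5 CPM in experiment 1, 61.8, 76.7, 52.1 and 65.4 in experiment 2, and 52.8, 55.5, 54.5 and 61.4 in experiment 3. Its log2 difference of 0.33 ± 0.090 (adjusted p = 0.031 with the block and 0.26 without) was called in 2 of 6 fits, with an adjusted p of 0.20 without the T0070907 library of experiment 2. *ZNF395* differed by -0.33 ± 0.075 (adjusted p = 0.017 with the block and 0.37 without) and was called in 3 of 6, with an adjusted p of up to 0.11 without that same library. Exons of *FAM162A* share positions with *WDR5B* on the opposite strand.

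Against vehicle, the combination changed 0 of the 31 genes with the block, as it did 0% of all tested genes, and 8 of the 31 (25.8%) had an unadjusted p below 0.05, beside 21.2% of all tested genes. Without the combination library of experiment 2, 19% of all genes were called and 3 of these genes, *FAM162A*, *HIF1A* and *PLOD2*, and without the vehicle library of experiment 2 the call was of 1, *HIF1A*, beside 6.38% of all genes. Without the combination library of experiment 2, the combination against T0070907 called 6 of these genes and 24.5% of all genes. The interaction of both compounds, which asks whether RGZ acted differently when T0070907 was present, called 0 of the 31 genes and 0.281% of all genes with the block, and 1, *HIF1A*, without that library (1.09% of all genes). Without the combination library of experiment 1 it also called 1, *CITED2* (0.764% of all genes). In all 12 libraries the interaction of *CITED2* was -0.48 ± 0.13 on the log2 scale (adjusted p = 0.16) and that of *STC1* -0.72 ± 0.24 (adjusted p = 0.30).

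**Figure D4:**
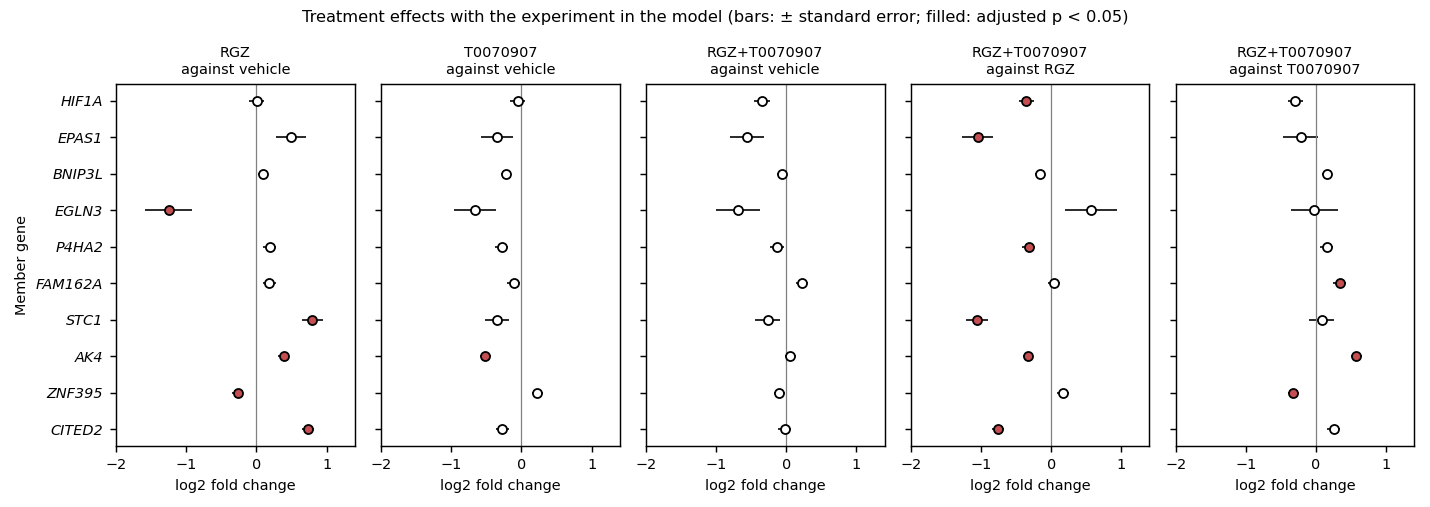
Log2 fold changes with their approximate SE in 5 comparisons, with the experiment in the model, for the 10 genes called in any comparison of treatments or in the test of all 4 conditions. Filled points have an adjusted p below 0.05 over all tested genes. Filled points number 5 for RGZ, 1 for T0070907, 0 for the combination against vehicle, 6 for the combination against RGZ and 3 for the combination against T0070907.

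The other lists were compared between RGZ and vehicle with the block, where 9.3% of all tested genes were called and 22.1% had an unadjusted p below 0.05. None of the 10 tested genes of HIF machinery was called, and 2 (20%) had an unadjusted p below 0.05. Of the 22 other hypoxia-induced genes outside glycolysis, 4 rose and 1 fell (22.7% called). *ANGPTL4* and *PLIN2*, which are also on the list of PPAR targets, rose by 6.32 ± 0.31 and 2.62 ± 0.13 on the log2 scale (adjusted p = 4.8e-10 for both), and *FLT1* fell by 1.12 on the log2 scale (SE 0.13, adjusted p = 9.9e-06). Of the 20 glycolytic genes 2 rose and 2 fell (20% called), with *PDK1*, a kinase that inhibits pyruvate dehydrogenase, higher by 0.55 ± 0.097 (adjusted p = 0.00091) and the glucose transporter *SLC2A3* lower by a log2 difference of -0.41 ± 0.093 (adjusted p = 0.0079). The medians were 0.027 for the other hypoxia-induced genes, 0.059 for the glycolytic genes and -0.048 for the HIF machinery. Of the ATF4 targets 2 of 8 were called (25%), 1 in each direction, and of the proliferation genes 0 of 8, with 0 at an unadjusted p below 0.05.

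In all, 6 of the 31 genes (19.4%) were called both for the experiment and in a test of treatments by either fit, beside 11.7% of all tested genes, namely *EPAS1*, *BNIP3L*, *STC1*, *AK4*, *ZNF395* and *CITED2*. Another 12 (38.7%) were called in neither, beside 57.5% of all tested genes. The 12 were *ARNT*, *VHL*, *VEGFA*, the mitophagy receptor gene *BNIP3*, *PLOD1*, *KDM3A*, *KDM4B*, *ANKRD37*, *LOX*, *ERO1A*, which oxidises disulfides in the endoplasmic reticulum, *BHLHE41* and *WSB1*. Of the 32 genes, 15 share exon positions with another gene, 14 of them with a gene on the opposite strand, and whether the authors counted by strand is not given in the sources used here. *BNIP3* has 46 named pseudogenes, so its count is uncertain where reads could be split.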

How the data were processed

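The authors deposited whole-number counts of reads per gene for 12 libraries, listed by NCBI gene number and not normalized, and 0 columns of other samples. The submitters' processing notes name the build hg19, and the aligner and counting tool are not given in the sources used here. Gene symbols were found for 23538 of 23705 gene numbers. The versions were 4.3.3 for R, 4.0.16 for edgeR, 1.42.0 for DESeq2 and 3.58.1 for limma. Counts were scaled by TMM and filtered by filterByExpr, and edgeR's quasi-likelihood tests with Benjamini-Hochberg adjustment over 13522 genes compared conditions in all 12 libraries. Experiments were compared in a model of condition and experiment. The approximate SE is the size of the log2 fold change divided by the square root of F. Variance shares used log2 CPM with a prior count of 2. Levels per kb used the longest annotated transcript. Scripts were tested on simulated data.

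Experiment numbers in the labels pair the libraries. Deviations from condition means correlated at 0.554 on average (0.0793 to 0.758) within experiments. The common dispersion was 0.0193 without and 0.00333 with the block. Members and lists were chosen with earlier results of these data known. Library values were given for the 4 regulators, for genes called in a test of treatments by either fit, and for the 8 called for the experiment with the largest range of experiment means. Alternatives were DESeq2 size factors, DESeq2, limma-voom, the block, filters, an adjusted p below 0.01, only the groups compared, no condition term, and leaving out libraries. A GC correction and the block combined with left-out libraries or experiments were added after seeing the data. Floors cover counting error only.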

Additional observations from a re-analysis of the deposited data

How the results depend on the processing

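The counts below are of the 31 hypoxia response genes called, and shares are of all tested genes. The replicate block changed them from 0 to 5 for RGZ against vehicle, to 1 for T0070907 against vehicle, to 6 for the combination against RGZ and to 3 for the combination against T0070907, and from 1 to 8 for any difference between conditions. Without the block the spread between experiments counts as error, and the common dispersion was 0.0193, against 0.00333 with it. A GC correction with the block gave 5, 1, 7, 4 and 9 (11.2%, 1.15%, 13.2%, 13.7% and 25.5%). With the block, leaving out 1 library gave 3 to 6 for RGZ (5.23% to 14.9%), 1 for T0070907 (0.22% to 2.4%), 0 to 3 for the combination against vehicle (0% to 19%), 3 to 7 for it against RGZ (6.25% to 18.9%), 1 to 6 for it against T0070907 (0.775% to 24.5%), 0 to 1 for the interaction (0.00728% to 1.09%) and 6 to 12 for any difference between conditions (11.9% to 36.4%). The highest value came without the combination library of experiment 2 for the combination against vehicle, for it against T0070907 and for any difference between conditions. Leaving out 1 whole experiment with the block gave 1 to 4, 0 to 1, 0 to 3, 3 to 5, 0 to 6, 0 and 4 to 9 in the same order, with fewer libraries in each fit. The shares there were 2.96% to 7.59%, 0.074% to 0.944%, 0% to 19.6%, 3.8% to 16.6%, 0.133% to 16.4%, 0.0074% to 0.168% and 4.59% to 28.7%. Without the block, DESeq2 called 1 gene, *AK4*, for the combination against T0070907 (0.614%). Experiment 3 against 1 called 6 genes (12%), 3 at an adjusted p below 0.01 (6.09%), 1 with no condition term (3.13%), and 3 to 10 without 1 library (7.06% to 20.5%), of which 10 came without the combination library of experiment 1 and 3 without the RGZ library of experiment 1 or of experiment 3. The other comparisons of experiments stayed within 1.5 times their count under each alternative run. Log2 fold changes of called genes with library values given kept their sign under each alternative run, while *HIF1A* with RGZ and *NDRG1* in the combination against vehicle, near 0 and not called, changed sign with the block. Depth limits *CA12*, *CA9*, *EGLN3* and *BHLHE41*, with fewer than 10 counts in some libraries.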
